A study of Mus musculus with 12 samples.

Results

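The Serpin genes encode the serine protease inhibitors of the mouse, named by clade letters a to i. They were taken here as every gene symbol made of Serpin, a clade letter, a number and optional letters that had at least 10 counts in 3 or more of the 12 libraries. Of 63 symbols of that form among the 54838 genes of the counts table, 34 met this rule, 20 of 25 in clade A, 6 of 27 in clade B, 2 of 3 in clade E, 2 of 2 in clade F, and 1 each in clades C, D, G and H. Neither gene of clade I did. The 29 genes left out had at most 10 counts in any library, and 19 of them had none. The study sequenced mRNA of whole liver from C57BL/6J mice kept at 7% or at 21% oxygen for 24 h and then injected into the peritoneum with dexamethasone (DEX, a synthetic glucocorticoid, 10 mg/kg) or with phosphate-buffered saline (PBS). Livers were taken 2 h after the injection, and the hypoxic mice went back to 7% oxygen in between. The 4 groups of 3 libraries were hypoxia with DEX, hypoxia with PBS, normoxia with DEX and normoxia with PBS, and the labels name no mutation or transgene in any of them. All mice had an injection, so an uninjected liver was not among the groups.

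Serpins trap a target protease by a change of shape that destroys both proteins. Hepatocytes secrete most of the serpins of blood plasma, among them antitrypsin (the Serpina1 genes), antithrombin (Serpinc1), the inhibitors of plasmin and of complement C1 (Serpinf2 and Serping1) and the Serpina3 genes, which are relatives of human antichymotrypsin and include acute phase genes. Some members inhibit nothing: Serpina6 carries corticosteroids in blood, Serpina7 carries thyroxine and Serpinh1 is a collagen chaperone inside the cell. Clade B serpins stay inside cells and are best known from leukocytes.

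Counts per library totalled 12464687 to 24715995. Replicates of 1 group differed by a chi-square of 10.54 to 38.45 per gene, except the first and the third libraries of hypoxia with DEX, which differed by 1.79, with 9.16% of genes past a limit that sampling alone passes in 5%. They were closer than any other pair but above sampling noise, and were kept as 2 libraries. The second library of hypoxia with DEX and the first of hypoxia with PBS stood apart from the others of their groups (14.64 and 15.42, and 21.41 and 38.45, per gene from the other libraries of the group). Several results that turn on them are given with and without them. The 14.64 and 15.42 lie within the range of pairs in the other groups, so that library stood apart only beside the close pair. Without it, hypoxia with DEX is the close pair alone, and adjusted p-values of such fits can be too small. The labels do not say that each library came from a separate mouse, so p-values measure the spread between these libraries. Levels are CPM (counts scaled to a library of fixed size) with TMM, a factor per library that evens out composition. Every test is edgeR's quasi-likelihood test over 13861 genes, "called" means a Benjamini-Hochberg adjusted p under 0.05 over all of them, and an error after a log2 fold change is its standard error. Bulk liver gives no cell of origin, so fewer cells of a type and less RNA per cell cannot be told apart.

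Serpin transcripts made up 3.01% ± 0.026 of all counts in hypoxia with DEX, 2.85% ± 0.183 in hypoxia with PBS, 3.08% ± 0.224 in normoxia with DEX and 2.42% ± 0.0915 in normoxia with PBS (SD, n = 3 each). All 3 libraries of normoxia with PBS, at 2.52%, 2.34% and 2.41%, lay below every other library, whose lowest was 2.7%. The 8 Serpina3 members supplied 1.82% ± 0.0727, 1.53% ± 0.0664 and 1.56% ± 0.18 of all counts in hypoxia with DEX, hypoxia with PBS and normoxia with DEX, against 0.867% ± 0.107 in normoxia with PBS. The 5 Serpina1 genes supplied 0.802% ± 0.0232 in hypoxia with DEX and 0.842% ± 0.073 in hypoxia with PBS, against 0.984% ± 0.0508 in normoxia with DEX and 0.922% ± 0.0442 in normoxia with PBS. Their shares overlapped across oxygen in PBS mice, with 0.925% in 1 library of hypoxia with PBS and 0.908% and 0.887% in 2 of normoxia with PBS. A share of counts is not scaled for composition; scaled by TMM, the total was 3.21% in hypoxia with DEX and 2.23% in normoxia with PBS. Per kilobase of exon, Serpina3k had the highest level in all 4 groups, 7025.2 CPM per kb in hypoxia with DEX, 5721.8 in hypoxia with PBS, 5626.5 in normoxia with DEX and 2656.7 in normoxia with PBS. Serpina1d followed it in all 4, with 1574.6 to 1738.3 CPM per kb.

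**Figure D1:**
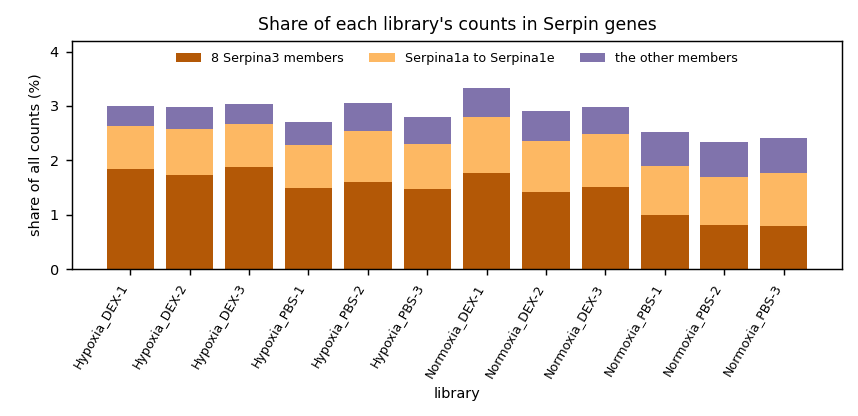
Share of each library's counts (%) in Serpin genes, stacked as the 8 Serpina3 members, Serpina1a to Serpina1e and the other members, with 1 bar per library. The 3 normoxia with PBS bars end between 2.34% and 2.52%, all others between 2.7% and 3.33%.

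In PBS mice, Serpina3c, Serpina3i, Serpina3k, Serpina3m, Serpina3n and Serpina5 rose with hypoxia, 6 of 33 tested members (18.2%, where 18.9% of all genes were called higher). Another 11 fell, 33.3% where 16.8% of all genes were called lower: Serpina1a, Serpina1c, Serpina6, Serpinb1a, Serpinb8, Serpinb9, Serpind1, Serpinf1, Serpinf2, Serping1 and Serpinh1. The median log2 fold change of the members was -0.01, and that of all genes was 0.007. Without the second library of hypoxia with PBS, 3 members were called higher instead of 6.

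In DEX mice, hypoxia against normoxia gave 3 members called higher (Serpina3c and Serpina3i among them, 9.09%, all genes 20.7%) and 13 called lower (39.4%, all genes 22.2%). The 11 that fell in PBS mice were all among these 13, beside Serpina7 and Serpine2. The median was -0.24 for the members and -0.021 for all genes. Without the third library of normoxia with PBS, which enters only through the shared spread and scaling, 5 members were called higher.

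In hypoxia, DEX against PBS gave these calls: 3 members rose (Serpina3c, Serpina3h and Serpina3m, 9.09%, all genes 6.13%) and 1 fell (Serpina7, 3.03%, all genes 7.05%), with a median of -0.03 against -0.015 over all genes. In normoxia, 7 rose (Serpina3c, Serpina3h, Serpina3k, Serpina3m, Serpina3n, Serpina5 and Serpine2, 21.2%, all genes 9.38%) and 0 were called lower (all genes 7.4%), with a median of 0.02 against 0.002. Of these, Serpina3c and Serpina5 passed the choice of members through their counts in DEX libraries, so their place among the genes higher with DEX is no support for a count. In the lower direction 2 members had an unadjusted edgeR p under 0.05, and DESeq2 called 2, Serpina10 among them. The fall in hypoxia rests on single libraries: leaving out the first or the third library of hypoxia with DEX, or the second or the third of hypoxia with PBS, left 0 members called lower, and leaving out the first of hypoxia with PBS left 3 called lower and 2 called higher. Without both libraries that stood apart, 6 members were called lower with DEX in hypoxia and 2 higher, and 3 were called lower in normoxia. In that fit, hypoxia with DEX is the close pair of libraries alone.

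**Figure D2:**
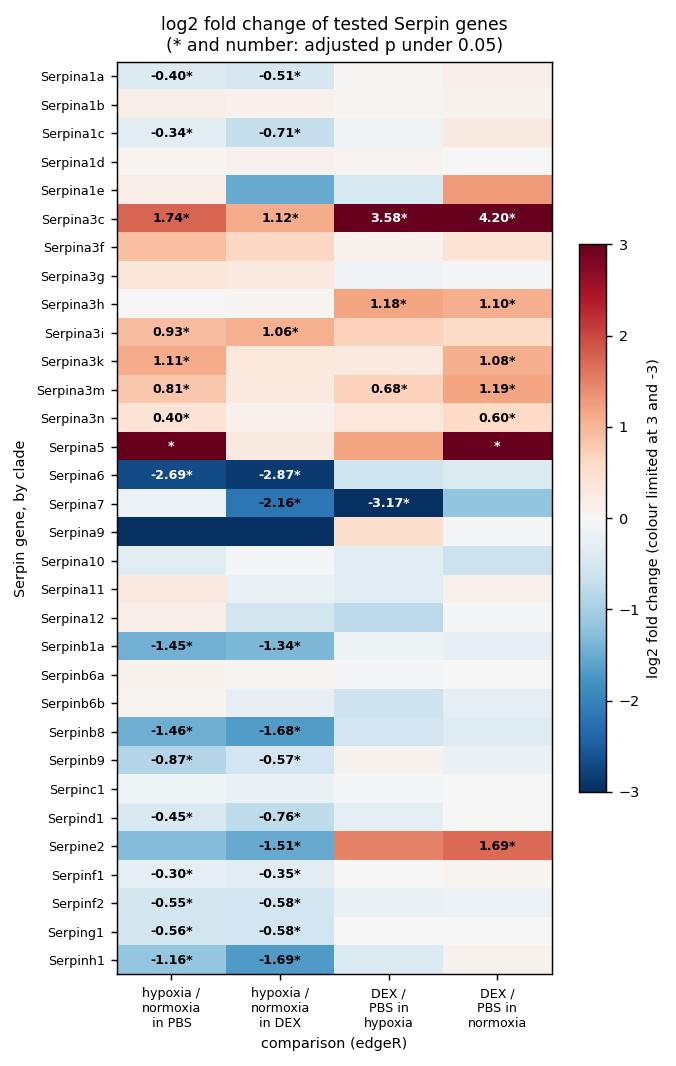
Heat map of log2 fold changes of tested Serpin genes (rows, by clade) in 4 comparisons (columns), colour limited at 3 and -3, with a star and the value where the adjusted p was under 0.05. Serpina5 has a star but no value, since 2 of its normoxia with PBS libraries had no count. The called genes of clades B, D, F, G and H are blue in the hypoxia columns, and the called values of Serpina3 genes are red.

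Serpina6 encodes corticosteroid-binding globulin, the carrier of glucocorticoids in plasma, and had the largest called fall with hypoxia in the family. It lies on chromosome 12 at 103646630 to 103657212 (mm10). Serpina6 measured 29.9, 39.7 and 30.1 CPM in hypoxia with DEX and 36.9, 58.2 and 55.8 CPM in hypoxia with PBS, against 171, 314 and 243 CPM in normoxia with DEX and 246, 334 and 391 CPM in normoxia with PBS. Every hypoxic library lay below every normoxic one. The fall was 6.44-fold in PBS mice (log2 fold change -2.69 ± 0.27, edgeR adjusted p = 6.96e-05) and 7.33-fold in DEX mice (-2.87 ± 0.28, adjusted p = 3.24e-05). With DEX, the 3 hypoxic values overlapped those with PBS, and the change of -0.6 ± 0.27 was not called (adjusted p = 0.181). When the fit held a block for replicate number, Serpina6 was called lower with DEX in hypoxia (-0.58, edgeR adjusted p = 0.0152) and in normoxia (-0.44, adjusted p = 0.0364).

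Serpina7, thyroxine-binding globulin, lies on the X chromosome at 139079257 to 139085236. It measured 3.08, 6.47 and 2.84 CPM in hypoxia with DEX, 7.66, 48.6 and 50.9 CPM in hypoxia with PBS, 14.1, 21.8 and 16.7 CPM in normoxia with DEX and 36.7, 42.7 and 41.7 CPM in normoxia with PBS. DEX libraries lay below PBS libraries in both oxygen settings with no overlap, but the first library of hypoxia with PBS was close to the highest DEX library there. In hypoxia, DEX lowered Serpina7 9.02-fold (-3.17 ± 0.69, adjusted p = 0.0184), and in DEX mice it changed with hypoxia by -2.16 ± 0.69 (adjusted p = 0.034). Leaving out the first or the third library of hypoxia with DEX ended both calls (adjusted p = 0.0793 and 0.0824 for DEX, 0.107 and 0.114 for hypoxia). Leaving out the second or the third library of hypoxia with PBS also ended the DEX call (adjusted p = 0.0557 and 0.0613), and leaving out any 1 library of normoxia with DEX ended the hypoxia call (adjusted p = 0.0524 to 0.0941). Without the first library of hypoxia with PBS, the DEX fall in normoxia was called as well (-1.21, adjusted p = 0.00369). Serpina7's own sequence before and after the start site is shown because it lies on a different chromosome from the cluster and fell with DEX:

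Serpina7: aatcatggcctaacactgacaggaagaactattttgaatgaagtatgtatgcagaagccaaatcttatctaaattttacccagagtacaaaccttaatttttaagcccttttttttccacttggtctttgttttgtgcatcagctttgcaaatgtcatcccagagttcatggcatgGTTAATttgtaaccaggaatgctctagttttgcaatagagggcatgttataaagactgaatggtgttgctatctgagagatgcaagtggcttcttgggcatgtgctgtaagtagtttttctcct

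This is 250 bases before and 50 after the start of transcription from RefSeq (build GRCm38.p6, chrX:139085170-139085469, minus strand), with a GTTAAT, 1 arm of the site of the liver factor HNF1, in capitals. Both strands were searched. GTTAAT was in 8 of the 25 members that have such a window and in 7.1% of 32851 windows of all genes. The near copies Serpina1a to Serpina1e are among these 8. A member was counted if any of its windows matched, while the share is per window, here and for the other motifs. A match is a description of the letters and not evidence of a bound site.

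**Figure D3:**
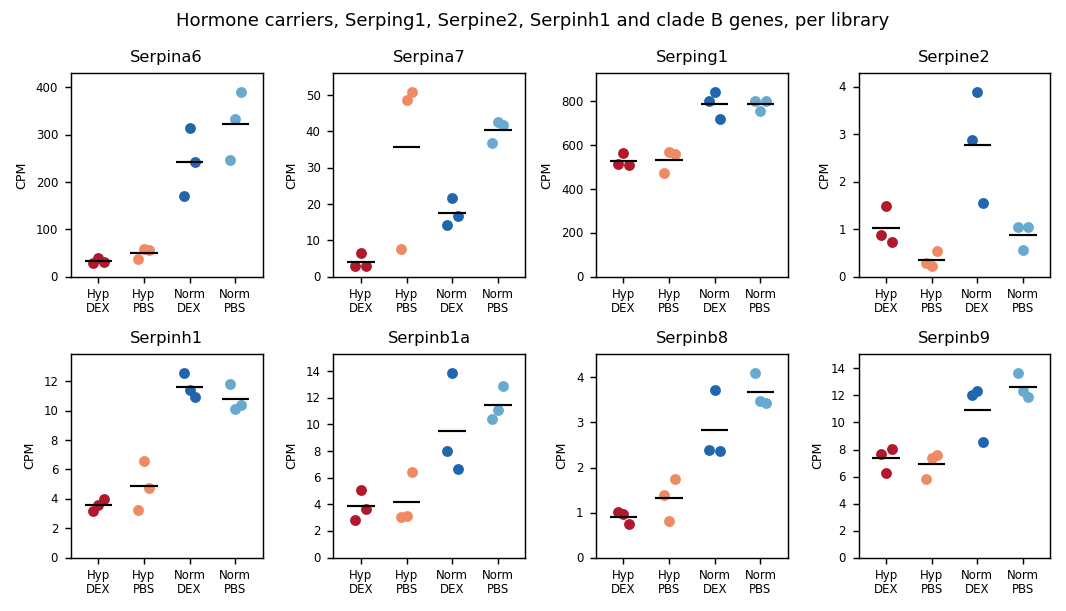
CPM of the hormone carriers Serpina6 and Serpina7, of Serping1, Serpine2, Serpinh1, Serpinb1a, Serpinb8 and Serpinb9 in each library (points), with the mean of each group (bars). Serpina6 and Serpinh1 sit low in all 6 hypoxic libraries, and Serpina7 sits low in the DEX libraries and in 1 library of hypoxia with PBS.

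Genes listed beside the hormone carriers were called in both directions. Of the 6 genes on that list (Alb, Dio1, Hsd11b1, Nr3c1, Thrsp and Ttr), 2 rose and 1 fell with hypoxia in PBS mice. Of all genes, 18.9% were called higher and 16.8% lower there. Thrsp rose by 1.78 ± 0.25 (edgeR adjusted p = 0.000362). Dio1, which activates thyroid hormone, rose (log2 fold change 0.83 ± 0.13, edgeR adjusted p = 0.000463), and Hsd11b1, which regenerates active glucocorticoid, fell (-0.42 ± 0.11, adjusted p = 0.0073). Nr3c1, the glucocorticoid receptor, measured 82.9 CPM in hypoxia with PBS and 75.4 CPM in normoxia with PBS and was not called between them. With DEX in hypoxia it was called lower (-0.23 ± 0.069, adjusted p = 0.0469).

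The Serpina3 genes sit side by side on chromosome 12 in a cluster of 19 members of clade A, at 103614786 to 104414329 (799.5 kb). Of the 8 tested, 5 rose with hypoxia in PBS mice (median log2 fold change 0.86, all genes 0.007), 2 with hypoxia in DEX mice (0.31, all genes -0.021), 3 with DEX in hypoxia (0.5, all genes -0.015) and 5 with DEX in normoxia (0.84, all genes 0.002). Of all genes, 18.9%, 20.7%, 6.13% and 9.38% were called higher in these comparisons in the same order. With all 12 libraries, edgeR called none of the 8 lower in any of these comparisons. None had an unadjusted p under 0.05 in that direction. Without both libraries that stood apart, Serpina3f and Serpina3g were called lower with DEX in hypoxia. Serpina3c, counted as higher in both DEX comparisons, became a member through its counts in DEX libraries, so it is no support for those counts.

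Serpina3k had the highest counts of the family. It measured 14649.6, 13478.8 and 15224.1 CPM in hypoxia with DEX, 11222, 12693 and 11394.3 CPM in hypoxia with PBS and 13262.5, 10324.1 and 11134.4 CPM in normoxia with DEX, against 6767.6, 5040.6 and 4586.6 CPM in normoxia with PBS. Hypoxia raised it 2.15-fold in PBS mice (1.11 ± 0.14, adjusted p = 6.11e-05) and DEX raised it 2.12-fold in normoxia (1.08 ± 0.14, adjusted p = 9.63e-05). Hypoxia with PBS and normoxia with DEX overlapped, hypoxia with DEX lay above both, and normoxia with PBS lay below all of them. In hypoxia, DEX changed it by 0.3 ± 0.14 and was not called (adjusted p = 0.182). Hypoxia in DEX mice changed it by 0.32 ± 0.14 and was not called (adjusted p = 0.0734), but was in 4 of 19 other settings.

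Serpina3m measured 1947.5, 2003.5 and 2008.2 CPM in hypoxia with DEX, 1295.3, 1336.6 and 1077.0 CPM in hypoxia with PBS, 1559.3, 1536.0 and 1746.2 CPM in normoxia with DEX and 663, 595 and 858 CPM in normoxia with PBS. The 4 groups did not overlap. Both DEX comparisons were called (0.68 ± 0.12, adjusted p = 0.00268 in hypoxia, and 1.19 ± 0.13, adjusted p = 1.9e-05 in normoxia), as was hypoxia in PBS mice (0.81 ± 0.12, adjusted p = 0.000303). Hypoxia in DEX mice changed it by 0.3 ± 0.12 and was not called (adjusted p = 0.0655), but was in 6 of 19 other settings. Its gene body overlaps that of Serpina3k on the same strand, and 16.0% of its 50-base stretches occur in Serpina3k, so reads of this pair could be exchanged by the counting.

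Serpina3n, a secreted acute phase serpin that also marks reactive astrocytes, measured 2644.3, 3282 and 2650 CPM in hypoxia with DEX, 2207, 2604.1 and 2075.6 CPM in hypoxia with PBS, 2585.5, 2496.4 and 2813.9 CPM in normoxia with DEX and 1526.5, 1545 and 2147.4 CPM in normoxia with PBS. DEX raised it by 0.6 ± 0.14 in normoxia (adjusted p = 0.00869), with all 3 DEX libraries above all 3 PBS libraries. The hypoxia call in PBS mice was 0.4 ± 0.14 (adjusted p = 0.038). The groups overlapped, and the call was lost without the first or second library of hypoxia with PBS (adjusted p = 0.0572 and 0.132) or without the first or second of normoxia with PBS (adjusted p = 0.141 and 0.144).

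Serpina3c had far fewer counts. It reached 10 counts in 7 libraries, the 6 with DEX and 1 of hypoxia with PBS, so it entered through the DEX libraries and had to be high there. It had 135, 92 and 153 counts in hypoxia with DEX and 6, 15 and 9 in hypoxia with PBS, and 80, 55 and 71 in normoxia with DEX and 3, 2 and 5 in normoxia with PBS. In CPM it measured 7.99, 8.04 and 8.03 in hypoxia with DEX, 0.351, 1.1 and 0.604 in hypoxia with PBS, 4.53, 2.28 and 4.41 in normoxia with DEX and 0.174, 0.102 and 0.33 in normoxia with PBS. No DEX library overlapped a PBS library. DEX raised Serpina3c 12-fold in hypoxia (3.58 ± 0.35, adjusted p = 2.48e-05) and 18.4-fold in normoxia (4.2 ± 0.44, adjusted p = 1.94e-05). Hypoxia raised it by 1.12 ± 0.27 in DEX mice (adjusted p = 0.00422) and by 1.74 ± 0.6 in PBS mice (adjusted p = 0.0362). The change in PBS mice rests on 15 counts or fewer in each library, and was not called without the second or the third library of hypoxia with PBS (adjusted p = 0.154 and 0.0605) or the first or second of normoxia with PBS (adjusted p = 0.0916 and 0.131).

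Serpina3h, which GENCODE M21 annotates as a transcribed pseudogene, rose with DEX by 1.18 ± 0.31 in hypoxia (adjusted p = 0.0234) and 1.1 ± 0.3 in normoxia (adjusted p = 0.0203). It measured 2.25, 4.11 and 2.15 CPM in hypoxia with DEX against 0.877, 1.61 and 1.21 CPM in hypoxia with PBS, and 2.21, 2.65 and 3.05 CPM in normoxia with DEX against 1.1, 1.53 and 0.989 CPM in normoxia with PBS. No DEX library overlapped the PBS libraries of its own oxygen setting. The hypoxia call was lost without the second library of hypoxia with DEX (adjusted p = 0.0642), or the first (adjusted p = 0.0554) or the third (adjusted p = 0.0736) of hypoxia with PBS, and the normoxia call without the second or the third of normoxia with DEX (adjusted p = 0.0576 and 0.072) or the first or the third of normoxia with PBS (adjusted p = 0.0691 and 0.0695). Serpina3i rose with hypoxia in DEX mice by 1.06 ± 0.28 (adjusted p = 0.0078), with 2.6, 4.11 and 2.36 CPM in hypoxia with DEX and 1.59, 1.49 and 1.12 CPM in normoxia with DEX. In PBS mice it had 1.46, 2.26 and 1.81 CPM in hypoxia against 0.637, 1.27 and 0.923 CPM in normoxia (0.93 ± 0.32, adjusted p = 0.0352), a call lost without the second or the third library of hypoxia with PBS (adjusted p = 0.113 and 0.0704) or the first or the third of normoxia with PBS (adjusted p = 0.127 and 0.0744). Serpina3f and Serpina3g, the remaining members of this block, were called in no comparison with all 12 libraries. They were both highest in the second library of hypoxia with DEX, at 71.8 and 60.3 CPM. Without both libraries that stood apart, they fell with DEX in hypoxia (-1.01, edgeR adjusted p = 0.0295, and -0.82, adjusted p = 0.00048). They then also rose with hypoxia in PBS mice (1.22, adjusted p = 0.00509, and 0.63, adjusted p = 0.000969). Hypoxia with DEX is the close pair of libraries alone in that fit.

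The sequences before the start sites show how alike some neighbours are. The RefSeq windows (GRCm38.p6, 250 bases before to 50 after the start) of Serpina3c and Serpina3n, which rose with DEX in normoxia, and of Serpina3g, which was not called, are given here. Capitals mark the glucocorticoid response element (GNACA, then any 3 bases, then TGTNC) and 1 arm of it, AGAACA, and in Serpina3g TTCNNNGAA, bound by STAT factors. In these windows no marked motif overlaps another.
Serpina3c: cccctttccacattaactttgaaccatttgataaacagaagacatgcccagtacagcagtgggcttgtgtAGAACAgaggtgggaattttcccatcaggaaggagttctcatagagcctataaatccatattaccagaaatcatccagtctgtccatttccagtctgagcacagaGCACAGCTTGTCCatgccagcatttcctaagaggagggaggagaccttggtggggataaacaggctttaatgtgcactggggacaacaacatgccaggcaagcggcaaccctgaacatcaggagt
Serpina3n: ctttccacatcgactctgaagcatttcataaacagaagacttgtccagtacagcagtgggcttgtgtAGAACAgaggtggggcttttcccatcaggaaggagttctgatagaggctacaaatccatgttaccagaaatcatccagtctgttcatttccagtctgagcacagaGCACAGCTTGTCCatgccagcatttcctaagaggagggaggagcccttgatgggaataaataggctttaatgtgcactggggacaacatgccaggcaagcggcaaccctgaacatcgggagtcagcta
Serpina3g: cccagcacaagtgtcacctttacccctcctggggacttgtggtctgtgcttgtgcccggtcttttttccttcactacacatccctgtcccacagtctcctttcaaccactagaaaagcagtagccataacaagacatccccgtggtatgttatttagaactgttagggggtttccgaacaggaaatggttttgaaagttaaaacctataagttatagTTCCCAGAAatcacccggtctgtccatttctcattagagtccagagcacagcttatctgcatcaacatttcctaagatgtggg
They lie at chr12:104153823-104154122 on the minus strand, chr12:104406458-104406757 on the plus strand and chr12:104235897-104236196 on the plus strand. Serpina3c and Serpina3n are 89.9% identical here, and Serpina3c and Serpina3g 41.6%. Both of the first pair hold gcacagcttgtcc, its first base at -75 and -78 from the start. The 2-armed element was in 3 of 25 members (the third is Serpinf2, which was not called with DEX) and in 0.475% of all windows, and AGAACA was in 12 of 25 members and 19.0% of windows. Of those with AGAACA, Serpina3c, Serpina3n and Serpina5 were called higher with DEX in normoxia. The others, Serpina3f, Serpina3i, Serpinb8, Serpinf2 and the near copies Serpina1a to Serpina1e, were not called with DEX by edgeR over all libraries. The letters of the window say nothing of whether the receptor was bound. No window was available for Serpina3h, Serpina3k or Serpina3m.

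**Figure D4:**
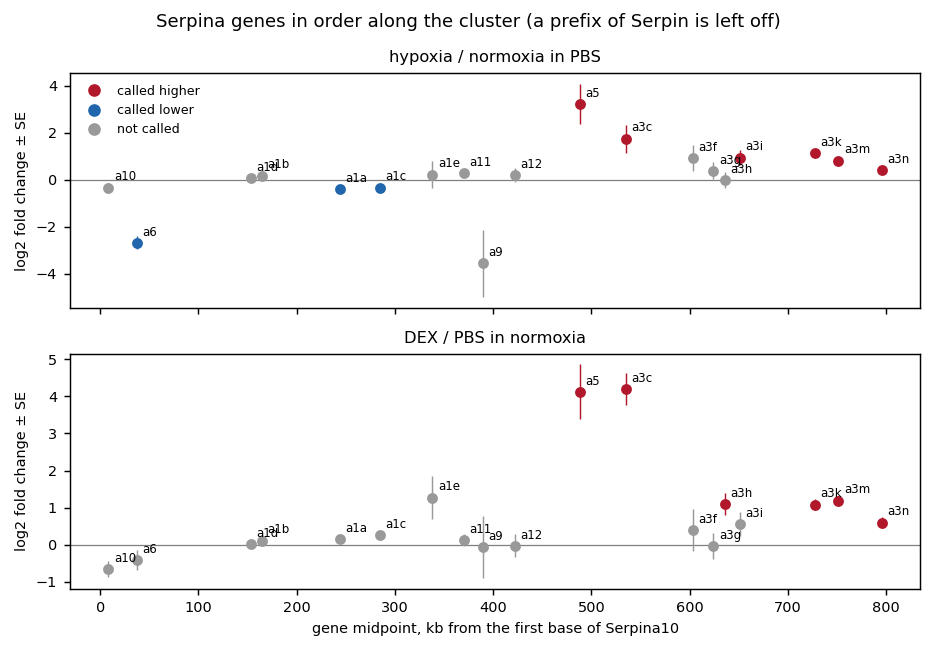
Log2 fold change with its standard error of the clade A genes on chromosome 12, by gene midpoint in kb from the first base of Serpina10, for hypoxia against normoxia in PBS mice (top) and DEX against PBS in normoxia (bottom). The called Serpina3 genes lie together at the right end and are all above 0. Serpina5's plotted value rests on 2 counts in normoxia with PBS.

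The antitrypsin genes Serpina1a, Serpina1b, Serpina1c, Serpina1d and Serpina1e are near copies, and 2 of the 5 fell with hypoxia, in PBS and in DEX mice alike. Serpina1a measured 765, 787 and 900 CPM in hypoxia with DEX and 715, 843 and 834 CPM in hypoxia with PBS, against 1168.5, 1235.3 and 1094 CPM in normoxia with DEX and 1096.4, 961 and 1094.7 CPM in normoxia with PBS. No hypoxic library overlapped a normoxic one (-0.4 ± 0.096, adjusted p = 0.00588 in PBS mice, and -0.51 ± 0.096, adjusted p = 0.000824 in DEX mice). Serpina1c measured 1085.8, 1236.6 and 1004.6 CPM in hypoxia with DEX and 1154.4, 1228.9 and 1193.2 CPM in hypoxia with PBS, against 1669.7, 1818 and 1970.5 CPM in normoxia with DEX and 1378, 1468.6 and 1673.3 CPM in normoxia with PBS. It too did not overlap across oxygen (-0.71 ± 0.1, adjusted p = 0.000102 in DEX mice, and -0.34 ± 0.1, adjusted p = 0.0179 in PBS mice), and the call in PBS mice was lost without the third library of normoxia with PBS (adjusted p = 0.0662).

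Serpina1b and Serpina1d were not called in any comparison over all 12 libraries. Without the third library of normoxia with PBS, Serpina1b was called higher with hypoxia in PBS mice (0.25, edgeR adjusted p = 0.0382). Serpina1b ranged from 2899.3 to 3811.8 CPM and Serpina1d from 2023.6 to 2571.4 CPM over the 12 libraries. Serpina1e varied most within groups, with 406, 645 and 485 CPM in hypoxia with DEX, 239, 1251.1 and 620 CPM in hypoxia with PBS, 2194.7, 810 and 1386.1 CPM in normoxia with DEX and 754, 493 and 574 CPM in normoxia with PBS. Its change with hypoxia in DEX mice was -1.52 ± 0.57 and was not called (adjusted p = 0.0619), although no library overlapped. It was called without the first or second library of hypoxia with PBS (adjusted p = 0.0229 and 0.0332), libraries that are not among those compared, by DESeq2 (adjusted p = 0.0205), when the fit held just the 6 libraries of DEX mice (adjusted p = 0.0486) and without both libraries that stood apart (adjusted p = 0.0352). How many reads can be told apart limits the copies: 74.2% of the 50-base stretches of Serpina1c, 57.6% of Serpina1a and 50.9% of Serpina1d occur in another gene. Summed into 1 gene, the 5 gave -0.001 ± 0.097 with hypoxia in PBS mice (edgeR adjusted p = 0.993). The Serpina3 genes summed gave 0.95 ± 0.103 (adjusted p = 2.03e-05) there and 1.0 ± 0.103 with DEX in normoxia (adjusted p = 1.68e-05). Their sum also rose with DEX in hypoxia (0.33 ± 0.102, adjusted p = 0.0462) and with hypoxia in DEX mice (0.29 ± 0.102, adjusted p = 0.0357). The difference of the DEX responses between the oxygen settings was then called (-0.66 ± 0.144, adjusted p = 0.0411). Serpina3k held 1.36% of all counts in hypoxia with DEX, where the 8 Serpina3 members held 1.82%.

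Serpina1b, which was not called over all 12 libraries, and Serpina1c, which fell with hypoxia, have near-identical windows (91.4%), shown for that contrast.
Serpina1b: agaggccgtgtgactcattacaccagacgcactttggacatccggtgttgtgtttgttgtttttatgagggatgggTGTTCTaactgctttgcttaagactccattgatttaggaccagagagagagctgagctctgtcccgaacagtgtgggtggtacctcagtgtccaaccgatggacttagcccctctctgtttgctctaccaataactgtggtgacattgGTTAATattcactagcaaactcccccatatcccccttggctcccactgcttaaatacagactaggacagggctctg
Serpina1c: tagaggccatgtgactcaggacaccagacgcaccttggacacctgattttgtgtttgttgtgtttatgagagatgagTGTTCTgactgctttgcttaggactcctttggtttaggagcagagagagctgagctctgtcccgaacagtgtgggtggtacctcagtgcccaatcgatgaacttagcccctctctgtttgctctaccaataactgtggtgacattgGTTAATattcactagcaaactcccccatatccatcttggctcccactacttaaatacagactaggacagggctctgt
They lie on the minus strand at chr12:103738140-103738439 and chr12:103904901-103905200 (RefSeq, GRCm38.p6), and capitals mark GTTAAT, and AGAACA read on the reverse strand as TGTTCT. Both hold both motifs. Among Serpina1a to Serpina1d identity ran from 85.2% to 91.4%, and Serpina1e stood apart at 63.9% to 69.3%.

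**Figure D5:**
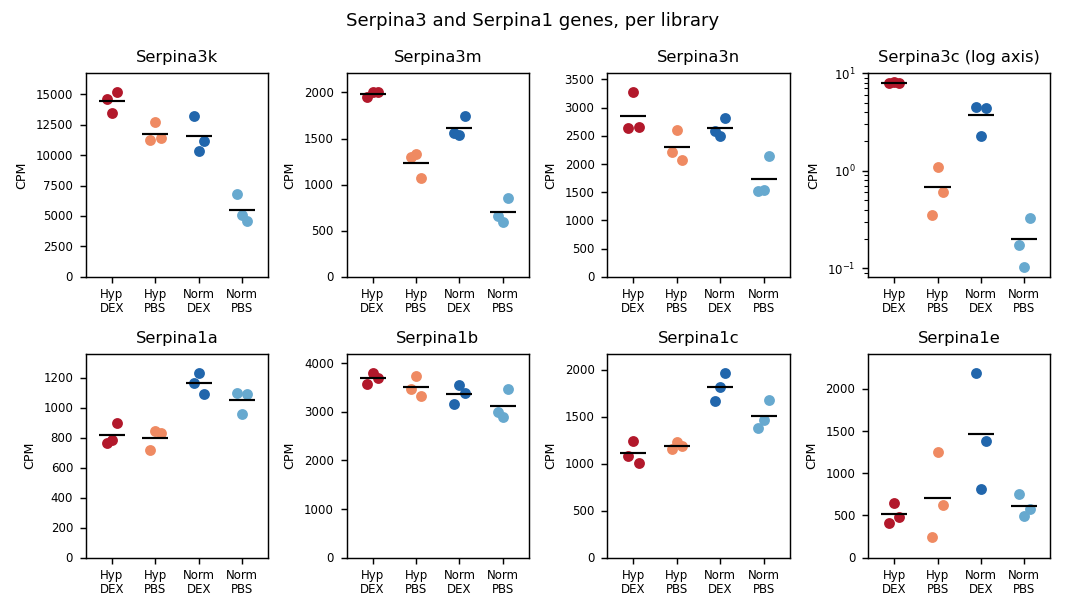
CPM of 4 Serpina3 genes (top, Serpina3c on a log axis) and 4 Serpina1 genes (bottom) in each library (points) with group means (bars). Serpina3k and Serpina3m are lowest in normoxia with PBS, and Serpina1a and Serpina1c are lower in the hypoxic libraries.

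Of the plasma serpins Serpinc1, Serpind1, Serpinf1, Serpinf2 and Serping1, 4 fell with hypoxia in PBS mice (median -0.45, all genes 0.007) and the same 4 in DEX mice (median -0.58, all genes -0.021). Of all genes, 16.8% were called lower in PBS mice and 22.2% in DEX mice. None of the 5 was called with DEX by edgeR in either oxygen setting (lowest adjusted p 0.0862; unadjusted p under 0.05 for 1 in hypoxia and 0 in normoxia; DESeq2 called 0 in both). Serping1, the C1 inhibitor that restrains complement and kallikrein, measured 514, 563 and 508 CPM in hypoxia with DEX and 474, 567 and 560 CPM in hypoxia with PBS, against 803, 844 and 721 CPM in normoxia with DEX and 800, 758 and 803 CPM in normoxia with PBS. It fell, with log2 fold changes of -0.56 ± 0.089 in PBS mice (adjusted p = 0.000394) and -0.58 ± 0.089 in DEX mice (adjusted p = 0.000209), with no overlap across oxygen.

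Serpinf2, the plasmin inhibitor, measured 526, 587 and 520 CPM in hypoxia with DEX and 567, 721 and 594 CPM in hypoxia with PBS, against 834, 872 and 732 CPM in normoxia with DEX and 923, 901 and 937 CPM in normoxia with PBS. It fell, with log2 fold changes of -0.55 ± 0.1 in PBS mice (adjusted p = 0.000925) and -0.58 ± 0.1 in DEX mice (adjusted p = 0.000473). Serpind1, heparin cofactor II, which blocks thrombin, measured 315, 341 and 290 CPM in hypoxia with DEX and 379, 442 and 340 CPM in hypoxia with PBS, against 515, 591 and 500 CPM in normoxia with DEX and 506, 512 and 573 CPM in normoxia with PBS. The fall was -0.76 ± 0.11 in DEX mice (adjusted p = 0.0001) and -0.45 ± 0.11 in PBS mice (adjusted p = 0.00516), again without overlap across oxygen.

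Serpinf1, the anti-angiogenic pigment epithelium-derived factor, measured 448, 513 and 439 CPM in hypoxia with DEX and 438, 490 and 453 CPM in hypoxia with PBS, against 550, 624 and 607 CPM in normoxia with DEX and 557, 552 and 592 CPM in normoxia with PBS. Hypoxia lowered it, with log2 fold changes of -0.35 ± 0.084 in DEX mice (adjusted p = 0.0047) and -0.3 ± 0.084 in PBS mice (adjusted p = 0.0137). Serpinc1, antithrombin, ran from 1783.3 to 1935.4 CPM in hypoxia with DEX and 1825.4 to 2057.6 CPM in hypoxia with PBS, against 2022.3 to 2160.5 CPM in normoxia with DEX and 2057 to 2179.6 CPM in normoxia with PBS. Its change in DEX mice was -0.19 ± 0.076 and was not called by edgeR (adjusted p = 0.0602), while DESeq2 gave 0.0312. Serpina10, the inhibitor of activated factor X that works with protein Z, measured 218, 331 and 221 CPM in hypoxia with DEX, 215, 375 and 380 CPM in hypoxia with PBS, 278, 250 and 258 CPM in normoxia with DEX and 399, 412 and 419 CPM in normoxia with PBS. Normoxic DEX and PBS libraries did not overlap, but the change of -0.65 ± 0.21 was not called (adjusted p = 0.0593). Without the second library of hypoxia with DEX it was (adjusted p = 0.0218), without the first of hypoxia with PBS it was (adjusted p = 0.00289), and DESeq2 called it (adjusted p = 0.0133). In hypoxia the DEX change was not called (edgeR adjusted p = 0.34), but was without the first library of hypoxia with PBS (-0.54, adjusted p = 0.0215). Without both libraries that stood apart it was -0.75 (adjusted p = 4.75e-05), and hypoxia in DEX mice was called too (-0.23, adjusted p = 0.0237).

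Serpine2, protease nexin 1, an inhibitor of thrombin and plasminogen activators, was measured at levels near 1 CPM. It measured 0.888, 1.49 and 0.735 CPM in hypoxia with DEX, 0.292, 0.219 and 0.537 CPM in hypoxia with PBS, 2.89, 3.9 and 1.55 CPM in normoxia with DEX and 1.04, 0.561 and 1.05 CPM in normoxia with PBS. DEX libraries were above PBS libraries of the same oxygen setting. DEX raised it by 1.69 ± 0.37 in normoxia (adjusted p = 0.00636) and it changed with hypoxia by -1.51 ± 0.37 in DEX mice (adjusted p = 0.0056). The matching changes, 1.48 ± 0.53 with DEX in hypoxia (adjusted p = 0.0855) and -1.3 ± 0.53 with hypoxia in PBS mice (adjusted p = 0.0729), were not called, and were without the third library of normoxia with DEX (adjusted p = 0.0458 and 0.0385). Whether the effects differ between the oxygen settings is a separate question, and that test did not call Serpine2.

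Serpinh1, HSP47, helps procollagen fold in the endoplasmic reticulum. It measured 3.2, 3.58 and 3.99 CPM in hypoxia with DEX and 3.27, 6.57 and 4.77 CPM in hypoxia with PBS, against 12.6, 11.4 and 10.9 CPM in normoxia with DEX and 11.8, 10.1 and 10.4 CPM in normoxia with PBS. No library overlapped across oxygen. It fell, with log2 fold changes of -1.69 ± 0.19 in DEX mice (adjusted p = 2.21e-05) and -1.16 ± 0.19 in PBS mice (adjusted p = 0.000482). Without the first library of hypoxia with PBS the DEX effect in hypoxia was called too (-0.62, adjusted p = 0.0256). Of 14 collagen partners, 5 fell and 2 rose with hypoxia in PBS mice (all genes 16.8% and 18.9%), and 9 fell and 2 rose in DEX mice (all genes 22.2% and 20.7%). Col3a1 averaged 5.51 CPM in hypoxia with DEX and 6.83 CPM in hypoxia with PBS, against 34.9 CPM in normoxia with DEX and 30.8 CPM in normoxia with PBS, a change of -2.18 ± 0.11 in PBS mice (adjusted p = 1.04e-07). P4hb, a disulfide isomerase that is a subunit of the collagen prolyl hydroxylase, rose by 0.86 ± 0.07 there (adjusted p = 2.27e-06). Some markers of stellate cells and fibroblasts, which make collagen, also fell with hypoxia (Col1a1 and Col3a1 are on both lists). Of 8, 5 fell in PBS mice and 6 in DEX mice, and 0 rose. Their sum was 291 to 301 CPM in hypoxia with DEX and 243 to 283 CPM in hypoxia with PBS, against 363 to 390 CPM in normoxia with DEX and 280 to 379 CPM in normoxia with PBS. The sums overlapped across oxygen in PBS mice. Dcn, the largest part of these sums, averaged 182 CPM in hypoxia with PBS and 161 CPM in normoxia with PBS and was not called. The part of these cells in the fall of Serpinh1 was not tested. The Serpinh1 window is printed because the hypoxia response core ACGTG lies in it, in capitals on the reverse strand as CACGT.
Serpinh1: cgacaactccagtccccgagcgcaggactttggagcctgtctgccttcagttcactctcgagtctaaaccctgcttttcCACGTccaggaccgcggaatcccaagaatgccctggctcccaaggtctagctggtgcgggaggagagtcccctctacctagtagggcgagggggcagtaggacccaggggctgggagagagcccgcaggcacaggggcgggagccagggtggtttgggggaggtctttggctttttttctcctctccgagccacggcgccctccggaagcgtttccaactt
It lies at chr7:99353190-99353489 on the minus strand (RefSeq, GRCm38.p6). ACGTG was in 3 of 25 members, Serpind1, Serpinf1 and Serpinh1, and in 19.6% of all windows. The other core searched, GCGTG, was in 4 of 25 members, Serpina12, Serpina3f, Serpinb6a and Serpinf2, of which 1 (Serpinf2) was called with hypoxia, and in 32.4% of windows.

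Clade B serpins, which act inside cells, fell with hypoxia where they changed. In PBS mice 3 of 5 tested members fell (median -0.87, all genes 0.007), where 16.8% of all genes were called lower. The same count fell in DEX mice (median -0.57, all genes -0.021), where 22.2% of all genes were called lower. With DEX none was called in either oxygen setting by edgeR, 1 had an unadjusted p under 0.05 in hypoxia and 0 in normoxia, and DESeq2 called 0. Serpinb1a, an inhibitor of neutrophil elastase, measured 2.84, 5.07 and 3.68 CPM in hypoxia with DEX and 3.04, 3.14 and 6.44 CPM in hypoxia with PBS, against 7.99, 13.9 and 6.65 CPM in normoxia with DEX and 10.4, 11.1 and 12.9 CPM in normoxia with PBS. It fell, with log2 fold changes of -1.45 ± 0.34 in PBS mice (adjusted p = 0.00704) and -1.34 ± 0.34 in DEX mice (adjusted p = 0.00894), with no overlap across oxygen.

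Serpinb8, which inhibits furin, measured 1.01, 0.961 and 0.735 CPM in hypoxia with DEX and 1.4, 0.803 and 1.75 CPM in hypoxia with PBS, against 2.38, 3.73 and 2.36 CPM in normoxia with DEX and 4.11, 3.47 and 3.43 CPM in normoxia with PBS. Hypoxia lowered it, with log2 fold changes of -1.68 ± 0.29 in DEX mice (adjusted p = 0.00047) and -1.46 ± 0.27 in PBS mice (adjusted p = 0.00104), with no overlap across oxygen. Serpinb9, which protects cells from granzyme B, measured 7.69, 6.29 and 8.03 CPM in hypoxia with DEX and 5.79, 7.37 and 7.59 CPM in hypoxia with PBS, against 12, 12.3 and 8.52 CPM in normoxia with DEX and 13.7, 12.3 and 11.9 CPM in normoxia with PBS. It fell, with log2 fold changes of -0.87 ± 0.16 in PBS mice (adjusted p = 0.000942) and -0.57 ± 0.16 in DEX mice (adjusted p = 0.00999), the last lost without the second library of normoxia with DEX (adjusted p = 0.0586). Serpinb6a ran from 12.4 to 14.8 CPM and Serpinb6b from 1.18 to 1.99 CPM in all libraries, and neither was called.

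Markers of Kupffer cells, the resident macrophages, fell with hypoxia, as did 3 of the 5 tested clade B genes. All 12 markers were called lower with hypoxia in PBS and in DEX mice (all genes 16.8% and 22.2%), with a median of -1.31 in PBS mice. Their sum was 228 to 249 CPM in hypoxia with DEX and 215 to 264 CPM in hypoxia with PBS, against 570 to 804 CPM in normoxia with DEX and 527 to 695 CPM in normoxia with PBS. None was at 0 in all libraries. The 8 neutrophil markers summed to 21.1 to 48.2 CPM in hypoxia with DEX and 26.2 to 97.8 CPM in hypoxia with PBS, against 11.8 to 19.7 CPM in normoxia with DEX and 32.0 to 53.0 CPM in normoxia with PBS. Of 9 endothelial markers, 5 were called lower and 1 higher with hypoxia in PBS mice, and of 7 tested lymphocyte markers, 3 lower and 0 higher. Hepatocyte markers summed to at least 119234.8 CPM in every library. The part of these cell types in the clade B values was not tested.

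The difference of the DEX responses between hypoxia and normoxia was tested as an interaction. No member was called by edgeR (0.325% of all genes were called higher and 0.996% lower), 4 had an unadjusted p under 0.05, all lower, and DESeq2 called 1, Serpina3k. For Serpina3k the difference was -0.79 ± 0.19 (edgeR adjusted p = 0.0686), the DEX response being 0.3 in hypoxia and 1.08 in normoxia, and it was called without the first library of normoxia with PBS (-0.97, adjusted p = 0.014). Serpina3m was called without the third library of normoxia with PBS (-0.67, adjusted p = 0.0407), and Serpina7 without the first of hypoxia with PBS (-2.44, adjusted p = 0.0111). Without both libraries that stood apart, which leaves the close pair alone in hypoxia with DEX, Serpina7 (-2.84, adjusted p = 0.000136) and Serpina3g (-0.78, adjusted p = 0.0167) were called.

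Serpina5, the protein C inhibitor, had 18, 6 and 22 counts in hypoxia with DEX, 6, 8 and 5 in hypoxia with PBS and 16, 13 and 16 in normoxia with DEX, against 0, 0 and 2 in normoxia with PBS. It was called higher with hypoxia in PBS mice (adjusted p = 0.0107) and with DEX in normoxia (adjusted p = 0.0015), and no fold is given because the comparison rests on 2 counts. It reached 10 counts in 5 libraries, all with DEX, so it entered through them and had to be high there. Serpina9 (0 to 21 counts a library), Serpina11 (17.5 to 28.4 CPM) and Serpina12 (6.38 to 15.0 CPM) were called in no comparison by edgeR over all 12 libraries. Serpina12 was called lower with DEX in hypoxia with only the compared groups (-0.78, adjusted p = 0.0269). Serpina11 rose with hypoxia in PBS mice without the first library of normoxia with PBS (0.47, adjusted p = 0.0328). Serpina9 fell there without the third (adjusted p = 0.0145) and by DESeq2 (adjusted p = 0.0489). Serpinb2, with 0 to 24 counts, was below the filter and was not tested.

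Among 37 partners of the serpins, that is proteases they inhibit and cofactors or receptors of their complexes, 32 were tested. With hypoxia, 6 rose and 10 fell in PBS mice (18.9% and 16.8% of all genes), and 4 rose and 14 fell in DEX mice (20.7% and 22.2% of all genes). With DEX, 2 rose and 2 fell in hypoxia (6.13% and 7.05% of all genes), and 6 rose and 0 fell in normoxia (9.38% and 7.4% of all genes). Asgr1, a receptor of hepatocytes for desialylated plasma proteins, averaged 674 CPM in hypoxia with PBS and 403 CPM in normoxia with PBS (0.74 ± 0.069, adjusted p = 6.75e-06). The lysosomal proteases moved apart: Ctsl rose by 0.68 ± 0.098 (adjusted p = 0.000186), while Ctss fell by 1.29 ± 0.13 (adjusted p = 1.3e-05) and Ctsb changed by -0.93 ± 0.09 (adjusted p = 8.84e-06). Thbd, thrombomodulin, rose with DEX in normoxia by 1.71 ± 0.36 (adjusted p = 0.0106), and Plau, the urokinase plasminogen activator, changed with DEX in hypoxia by -1.45 ± 0.37 (adjusted p = 0.021). F11, the precursor of a coagulation protease that Serpinc1 and Serping1 restrain, averaged 38.4 CPM in hypoxia with DEX, 65.5 CPM in hypoxia with PBS, 82.1 CPM in normoxia with DEX and 57.9 CPM in normoxia with PBS. Its DEX response was -0.77 ± 0.14 in hypoxia and 0.5 ± 0.13 in normoxia, and it was the only partner whose difference was called (-1.27 ± 0.19, adjusted p = 0.00644).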

How the data were processed

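Liver mRNA was measured in 12 libraries, 3 in each of 4 groups. Raw read counts per gene were deposited in 1 table. Per the submitters' processing notes the authors used HISAT2 2.0.4, featureCounts, Trimmomatic, SAMtools and DESeq2, on build mm10. The library kit was stranded, per the labels' protocols. Not given in the sources used here were the annotation, the strand setting and the treatment of reads that match several genes, so values of near-identical Serpina1 and Serpina3 genes are uncertain. In the labels the normal-oxygen arm is also once called hypoxia, and groups were taken from the treatment label of each sample.

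Symbols were found for 54723 of 54838 gene IDs with the GENCODE M21 annotation. Counts were tested with edgeR 4.0.16 in R 4.3.3 (filterByExpr, TMM, robust quasi-likelihood fit with 1 mean per group over all 12 libraries, 8 residual degrees of freedom), with Benjamini-Hochberg adjustment over 13861 genes and a threshold of 0.05. The fits were tested on simulated data. Fold changes of single members are printed for called values and for values with an unadjusted p under 0.05. Not every value of the second kind is printed, so a value left out was not always flat.

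The rule for values in every library takes 24 members, up to 14 by the size of their called change at 1 CPM or more in a group and 14 of a fixed textbook set, 4 being in both, and 1 member is not reported here. Serpina5, Serpina10, Serpina3f, Serpina3g, Serpinb6a and Serpinb6b were named after their values were seen. The members and lists were chosen with earlier results of these data known. Promoter windows are from RefSeq (GRCm38.p6), with 25 of 34 members matched. Serpina6, Serpina9, Serpina10, Serpinb1a and Serping1 are among those without one.

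Other settings tried were DESeq2 1.42.0, size factors by RLE, a block for replicate number, no filter on low counts, the compared groups alone, each library left out, the 2 closest libraries summed, both libraries that stood apart left out, and paralogs summed.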

Additional observations from a re-analysis of the deposited data

How the results depend on the processing

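Of 42 called fold changes of named members, 32 kept their call under every alternative run and 10 lost it under at least 1. Of 17 uncalled values with an unadjusted p under 0.05, 13 were called under at least 1. No value changed sign.

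Counts of called members that left the range of 1.5 times the reported one were these, and the cause was not tested except where the setting has fewer features by construction, as with summed paralogs. With hypoxia in PBS mice, 2 members were called higher with only the compared groups and 2 with paralogs summed, against 6, and leaving out 1 library gave 3 to 7. With hypoxia in DEX mice, 5 were called higher with only the compared groups, against 3, and 2 to 5 with 1 library left out. With DEX in hypoxia, paralogs summed gave 1 called higher, against 3. There, 1 was called lower, against 2 without the low-count filter, 2 with the replicate block, 0 with the 2 closest libraries summed, 6 without both libraries that stood apart, and 0 to 3 with 1 library left out. With DEX in normoxia, paralogs summed gave 3 called higher, against 7, and the 0 called lower became 2 with only the compared groups, 3 with the replicate block, 3 without both libraries that stood apart, 2 with DESeq2 and 0 to 2 with 1 library left out. The interaction had 0 called lower, and 2 without both such libraries, 1 with paralogs summed, 1 with DESeq2 and 0 to 1 with 1 library left out. The TMM-scaled share of all members was 3.21% in hypoxia with DEX and 2.23% in normoxia with PBS.

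The values here do not settle whether the replicate numbers pair the samples, and the labels name no shared litter, batch or day. Over 18 pairs of libraries with the same number in different groups, the correlation of their deviations ran from -0.151 to 0.39, with 4 over 0.1, and 7 of 12 libraries correlated best with their own number. Under the replicate block, Serpina6 fell with DEX in hypoxia (-0.58, edgeR adjusted p = 0.0152) and in normoxia (-0.44, 0.0364), Serpina10 fell with DEX in normoxia (-0.64, 0.0496), and Serpina3c was not called with hypoxia in PBS mice (1.74, 0.0508). Among the members reported here the block changed no other call.

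With 3 libraries a group, members under about 1 CPM, such as Serpina5 and Serpina9, rest on few counts.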

Other observations

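Serpin pseudogenes whose symbols fall outside the naming rule were also counted. Serpina4-ps1 measured 43.8, 23.9 and 37 CPM in hypoxia with DEX, 11.7, 8.4 and 8.12 CPM in hypoxia with PBS, 219, 25.8 and 51.6 CPM in normoxia with DEX and 9.62, 12.5 and 0.659 CPM in normoxia with PBS. All DEX libraries lay above all PBS libraries, and the first library of normoxia with DEX, which was also the highest of the 12 for Serpina1e at 2194.7 CPM, was the highest here. Serpina3e-ps, in the Serpina3 block, measured 2.43, 4.19 and 2.89 CPM in hypoxia with DEX and 1.99, 2.63 and 3.22 CPM in hypoxia with PBS, against 2.78, 1.74 and 2.92 CPM in normoxia with DEX and 1.27, 0.816 and 0.857 CPM in normoxia with PBS. The 3 libraries of normoxia with PBS were the lowest.

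Within hypoxia the first library with PBS was the lowest of its group for Serpina6, Serpina7 and Serpina10, and the second library with DEX was the highest of its group for the same 3 genes. Their values stand beside each gene.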
